A study of Mus musculus with 495 samples.

Results

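The 9 genes Col1a1, Col1a2, Col3a1, Dcn, Sparc, Fn1, Lamb1, Col18a1 and Vim encode collagens and other proteins of the extracellular matrix, and a cytoskeletal filament of matrix-producing cells. They were chosen by name, and all 9 were present among the 23002 genes of the count table. Their levels were followed in single cells of the mouse embryonic pancreas, first in the cells of plate EA04 and then in the Neurog3-positive cells of the 6 other plates. The whole series held 495 cells, each sequenced from its own well with Smart-Seq2, which reads full transcripts and carries no molecular identifiers.

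At E17.5, plates EA06 and EA07 (plate code Neurog3-cre, 57 and 72 cells) came from embryos with the genotype Neurog3-Cre, Rosa-mTmG. In such embryos Cre driven from Neurog3 sequences switches a membrane reporter from tomato to GFP. At E15.5, plates EA01 and EA03 (code Neurog3, 73 and 70 cells), EA02 and EA05 (code endocrine, 72 and 85 cells) and EA04 (code duct, 66 cells) came from Neurog3-eGFP embryos. Column names describe every plate as knock-in, and the groups here follow the labels instead. Because animals and litters were not named, a group counted as a single sample. No test was possible, and cells were not treated as replicates. Plate medians lay between 438470 and 851992 counts per cell. Plates also differed in the share of counts on Rn45s, a ribosomal RNA locus, with 20.6% to 23.04% in EA01 to EA04 and 8.83% to 10.3% in EA05 to EA07.

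Fibrillar collagens are rod-shaped trimers that fibroblasts, and in the embryo also mesothelial cells, secrete into the space between tissues. Decorin coats their fibrils, SPARC binds collagen and calcium, and fibronectin links fibrils to integrins. Laminins and collagen XVIII belong instead to the basement membrane, the sheet on which epithelial cells sit, and epithelia make part of it themselves. The pancreatic epithelium grows inside a mesenchyme that is covered by mesothelium, and Neurog3, the transcription factor that starts the endocrine programme, is switched on in cells of its ducts.

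The collagen genes differ in how far they carry the repeat that defines the family, in which each codon triplet opens with a glycine codon spelled GGN. In the coding sequence of Col1a1 (1453 codons, GENCODE M21) this spacing ran unbroken for 338 triplets. It ran for 339 triplets in Col1a2 (1372 codons) and 344 in Col3a1 (1464 codons), the sign of a fibrillar collagen. In Col18a1 (1774 codons) the longest run was 30 triplets, one of 16 runs of 4 or more, which is the interrupted repeat of a basement membrane collagen. The start of the longest run is shown for each, 54 bases with GGN codons in capitals, because this difference in structure separates the genes that also differ in the cells below.
Col1a1: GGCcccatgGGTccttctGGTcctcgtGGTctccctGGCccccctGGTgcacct
Col1a2: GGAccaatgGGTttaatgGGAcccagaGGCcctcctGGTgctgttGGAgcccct
Col3a1: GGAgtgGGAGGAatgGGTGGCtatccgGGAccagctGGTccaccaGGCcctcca
Col18a1: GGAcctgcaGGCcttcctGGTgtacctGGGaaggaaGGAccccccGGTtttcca

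RefSeq promoters (GRCm38.p6) were found for 6 of the 9 genes. The 250 bases before the start were searched on both strands for the CCAAT box (CCAAT), the TATA box (TATAAA) and the GC box (GGGCGG), which do not overlap one another in these windows. Of 32851 promoters, 33.8% held CCAAT, 12.4% TATAAA and 32.7% GGGCGG. Upstream stretches of 2 fibrillar collagens and 2 basement membrane genes are shown because the first pair was read together in stromal cells and the second in epithelium too. They are printed without bases that GENCODE annotates as exon, with motifs of either strand in capitals, and for Col18a1 from the upstream of its 2 starts.
Col1a2, chr6:4505370-4505492, plus strand: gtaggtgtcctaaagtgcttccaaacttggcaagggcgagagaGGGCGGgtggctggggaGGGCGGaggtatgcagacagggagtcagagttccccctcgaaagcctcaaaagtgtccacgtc
Col3a1, chr1:45311288-45311537, plus strand: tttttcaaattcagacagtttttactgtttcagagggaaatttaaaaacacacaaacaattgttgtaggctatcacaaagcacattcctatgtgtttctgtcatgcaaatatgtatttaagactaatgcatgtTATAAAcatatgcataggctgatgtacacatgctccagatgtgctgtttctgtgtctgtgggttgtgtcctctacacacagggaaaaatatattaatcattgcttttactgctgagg
Lamb1, chr12:31265043-31265233, plus strand: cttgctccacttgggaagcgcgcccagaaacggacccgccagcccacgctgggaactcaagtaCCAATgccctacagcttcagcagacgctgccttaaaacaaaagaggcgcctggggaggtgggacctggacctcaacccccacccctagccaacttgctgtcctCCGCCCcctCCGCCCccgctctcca
Col18a1, chr10:77166549-77166780, minus strand: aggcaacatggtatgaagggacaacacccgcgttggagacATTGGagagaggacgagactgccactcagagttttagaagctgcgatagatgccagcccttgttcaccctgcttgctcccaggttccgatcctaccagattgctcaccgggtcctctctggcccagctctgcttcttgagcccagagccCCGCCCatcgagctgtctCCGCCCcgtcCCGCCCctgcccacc
Col1a2 (62% G or C over its 250 bases) held 2 GC boxes, with a CCAAT box outside the stretch shown. Lamb1 (62%) held 2 GC boxes and 1 CCAAT box, and Col18a1 (62%) held 3 and 1. Col3a1 (35.2% G or C) held a TATAAA and neither of the other motifs. Col1a2 and Col3a1, which were read in the same cells, thus shared none of these motifs in this window.

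In EA04 the cells were sorted into classes by clustering without the 9 genes or any other matrix gene. The clusters were named from marker lists. A cluster of 13 cells was mesothelium-like, with 6 of 7 measured mesothelium markers at 20 CPM (counts per 1000000 counts) or more in the summed counts. Among them were Gpm6a at 952 CPM, Upk3b at 429 CPM and the transcription factor gene Wt1 at 356 CPM, while Msln had 0 counts. Only 5 of 17 mesenchyme markers reached 20 CPM, and 7 had 0 counts, among them Pdgfra, Prrx1 and Tcf21. Their summed level per cell was 544, 2220 and 4377 CPM (lowest, median and highest), mainly from Igf1 and Osr1, against 0, 278 and 1308 CPM in the epithelial cells. Of the pericyte markers 3 of 6 reached 20 CPM, with Rgs5 and Cspg4 at 0. The cells that carried the stromal matrix genes on this plate were thus called mesothelium-like and not mesenchyme-like. Per cell, the summed mesothelium markers had a lowest, median and highest value of 592, 2268 and 4206 CPM in these 13 cells, against 0, 0 and 11.7 CPM in the epithelial cells.

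The epithelial cells of EA04 were 43 acinar-like and 9 duct-like cells, 52 in all. Another cell fell in the duct-like cluster but had 0 counts of Epcam and Cdh1 and all 13 endothelium markers at 20 CPM or more, and it was set aside. It held Vim at 1022 CPM and Sparc at 980 CPM, Lamb1 at 122.03, Fn1 at 70.02 and Col18a1 at 46.01 CPM, and no count of the other 4 genes. Median counts per cell were 452644 in the mesothelium-like and 435891 in the epithelial cells, and median genes read were 3735 and 4416.5.

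Col1a1, Col1a2, Col3a1 and Dcn were read in every one of the 13 mesothelium-like cells and were close to absent from the epithelium. Sparc was high in the same cells and present in part of the epithelium. Fn1 and Vim were higher in the mesothelium-like cells, and the basement membrane genes Lamb1 and Col18a1 lay near 2-fold of the epithelium taken as a whole. Of the 9 genes, 8 were over 2-fold higher in the mesothelium-like than in the epithelial cells. Of 7979 genes at 20 CPM or more in either class, 28.4% were over 2-fold higher and 23.1% lower, with a median log2 ratio of 0.08 that edgeR's TMM factors moved to -0.12. The 4 genes Col1a1, Col1a2, Col3a1 and Dcn reached 20 CPM only through the mesothelium-like cells and could only come out higher there. All intervals are exact 95% intervals for counting error alone. The log2 ratios have 5 CPM added to both levels unless stated, which understates the ratio of low genes.

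Col3a1 (chromosome 1, 45311538 to 45349706, GRCm38), the chain of collagen III, had a lowest, median and highest value of 1149, 3765 and 5862 CPM over the 13 mesothelium-like cells. In the 52 epithelial cells its reads, 7 counts, came from a single duct-like cell at 11.7 CPM. Every mesothelium-like cell lay above every epithelial cell. The summed levels were 3833 against 0.308 CPM, a log2 ratio without added CPM of 13.61 (12.56 to 14.92).

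Col1a1 (chromosome 11, 94936224 to 94953042) and Col1a2 (chromosome 6, 4504814 to 4541544) encode the chains that join into collagen I. Col1a1 ran at 320, 2757 and 3931 CPM (lowest, median and highest cell) in the mesothelium-like cells, and its 2 counts in the epithelium lay in 2 acinar-like cells of at most 3.61 CPM. The log2 ratio without added CPM was 14.67 (12.82 to 17.72). Col1a2 ran at 477, 1327 and 2898 CPM, and its 14 epithelial counts lay in 2 cells, the higher at 19.96 CPM (log2 ratio without added CPM 11.16, 10.41 to 12.03). Both chains were therefore found in all 13 cells, and neither at a comparable level in any epithelial cell. Per kilobase of the longest coding transcript, Col1a1 stood at 386 and Col1a2 at 263 CPM in the mesothelium-like cells.

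Dcn (chromosome 10, 97479609 to 97518143), which encodes the proteoglycan decorin, ran at 333, 2782 and 5098 CPM in the mesothelium-like cells and had 6 counts in the epithelium, none of its cells above 8.34 CPM. The log2 ratio without added CPM was 13.34 (12.22 to 14.79). Sparc (chromosome 11, 55394500 to 55423183) was the member with the highest level, at 3607, 5032 and 9279 CPM. In the epithelium 12 of 52 cells had at least 10 CPM of Sparc, up to 1100 CPM. The summed levels were 5587 CPM in the mesothelium-like and 112.2 CPM in the epithelial cells, a 49.8-fold difference. For all 5 of these genes each mesothelium-like cell stood above each epithelial cell, which was the case for 0.175% of the 7979 genes.

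Fn1 (chromosome 1, 71585520 to 71653200), the gene of fibronectin, ran at 0, 749 and 2727 CPM in the mesothelium-like cells and reached 10 CPM in 12 of the 13. In the epithelium 2 of 52 cells reached 10 CPM, and 1 duct-like cell with 3839 CPM, above every mesothelium-like cell, held 96.6% of all Fn1 counts of that class. The summed levels were 1128 against 61.5 CPM, so the epithelial value describes 1 cell. Vim (chromosome 2, 13573927 to 13582826), the intermediate filament of mesenchymal cells, ran at 111.5, 967 and 1986 CPM in the mesothelium-like cells, and 18 of 52 epithelial cells had at least 10 CPM of it. The summed Vim levels were 964 against 142.1 CPM, a 6.79-fold difference with overlapping cells.

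Lamb1 (chromosome 12, 31265234 to 31329644), a beta chain of laminins, ran at 0, 189 and 878 CPM in the mesothelium-like cells and at 0, 93.2 and 1405 CPM in the epithelial cells. The summed levels were 328 against 156.8 CPM (log2 ratio 1.04). This call ended with TMM factors (0.88), with the mean of the cells' own CPM (0.85) and with 20 CPM added (0.98). Col18a1 (chromosome 10, 77052178 to 77166548) ran at 0, 0 and 261 CPM in the mesothelium-like cells, with 6 of 13 at 10 CPM or more, and at 0, 0 and 457 CPM in the epithelium, with 10 of 52. Its summed levels were 102.7 against 55.4 CPM (log2 ratio 0.84), so it was the 1 gene of the 9 that did not pass 2-fold. Fn1 overlaps Apol7d and Col18a1 overlaps Slc19a1 on the opposite strand, and since the reads are not known to carry strand their counts cannot be told apart in the shared bases.

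**Figure D1:**
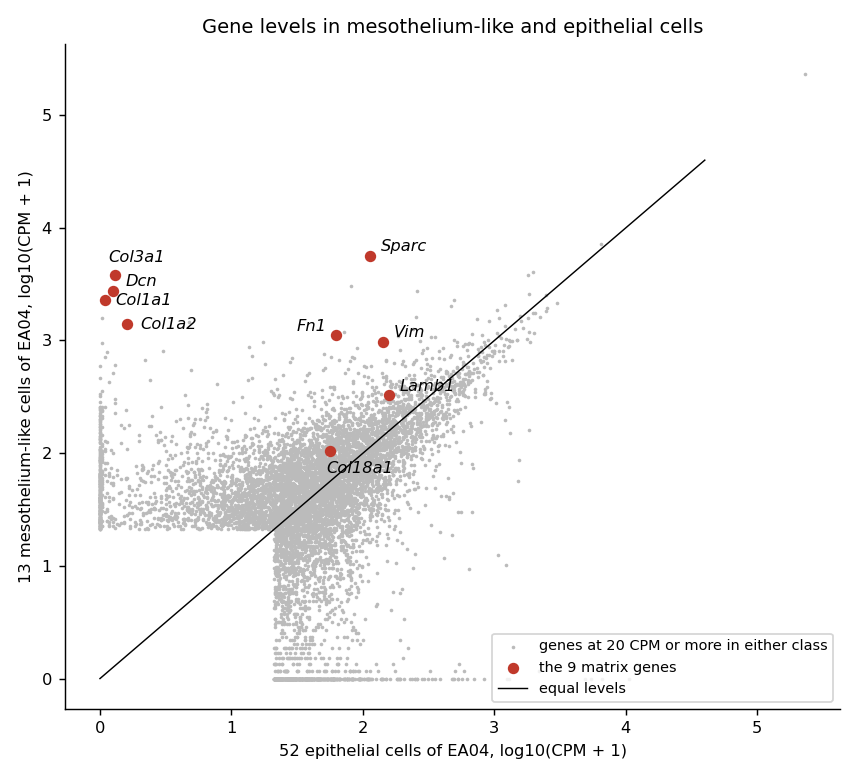
Summed level of each gene in the 13 mesothelium-like cells (vertical axis) against the 52 epithelial cells of EA04 (horizontal axis), both as log10(CPM + 1); grey points are genes at 20 CPM or more in either class, red points the 9 matrix genes and the line equal levels. Col1a1, Col1a2, Col3a1 and Dcn lie at the left edge, near 0 in the epithelium, and Lamb1 and Col18a1 lie close to the line.

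Compared per kilobase of transcript within the mesothelium-like cells, Sparc was highest at 2429 CPM, followed by Dcn at 1554 and Col3a1 at 689. Vim (440), Col1a1 (386), Col1a2 (263) and Fn1 (135.6) came next, and Lamb1 (56.7) and Col18a1 (18.4) were lowest. The 13 cells did not carry these genes in a fixed ratio. Over these cells, which share a plate, the rank correlation was 0.74 between Col1a2 and Dcn and 0.70 between Col1a1 and Sparc, but 0.09 between Col1a2 and Col3a1 and -0.60 between Col1a2 and Col18a1.

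The epithelium of EA04 was not uniform. Within it, the duct-like cells carried 5 of the 9 genes and the acinar-like cells mainly Lamb1. The mesothelium-like cells were over 2-fold higher than the acinar-like cells for all 9 genes, where 31.4% of 7852 genes were, but 7 of the 9 reached 20 CPM only through the mesothelium-like cells and had to be higher. All 5 genes at 20 CPM or more in either epithelial class were over 2-fold higher in duct-like than in acinar-like cells, where the background over 7517 genes was 27.4% higher and 15.8% lower. Sparc, Fn1 and Col18a1 reached 20 CPM only through the duct-like cells and could only come out higher. Vim ran at 0, 600 and 1447 CPM (lowest, median and highest) in the 9 duct-like cells, with 8 of 9 at 10 CPM or more, against 10 of 43 acinar-like cells and summed levels of 641 against 28.1 CPM. Sparc ran at 0, 745 and 1100 CPM in the duct-like cells, again 8 of 9, against 4 of 43 acinar-like cells and 585 against 4.10 CPM. Col18a1 followed the same cells, at 0, 296 and 457 CPM in the duct-like class with 8 of 9 positive, against 2 of 43 acinar-like cells and 285 against 2.86 CPM.

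Lamb1 was the shared gene of both epithelial classes. It was found in 9 of 9 duct-like cells (75.5, 354 and 1103 CPM) and 27 of 43 acinar-like cells (0, 68.2 and 1405 CPM), with summed levels of 361 and 110.2 CPM. Fn1 had 330 CPM in the duct-like cells, nearly all from the 1 cell described above, and 3 counts in the acinar-like cells. None of the 43 acinar-like cells reached 10 CPM of Fn1, which allows a share of up to 6.98% (3 of 43). Set against the duct-like cells alone, the mesothelium-like cells were higher for Sparc (log2 ratio 3.24) and Fn1 (1.76), alike within 2-fold for Vim (0.58) and Lamb1 (-0.14) and lower for Col18a1 (-1.43), where 26.9% of 8198 genes were higher and 29.5% lower. So the genes that set the mesothelium-like cells apart from duct-like cells were the fibrillar collagens, Dcn, Sparc and Fn1, and the order reversed for the basement membrane collagen.

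**Figure D2:**
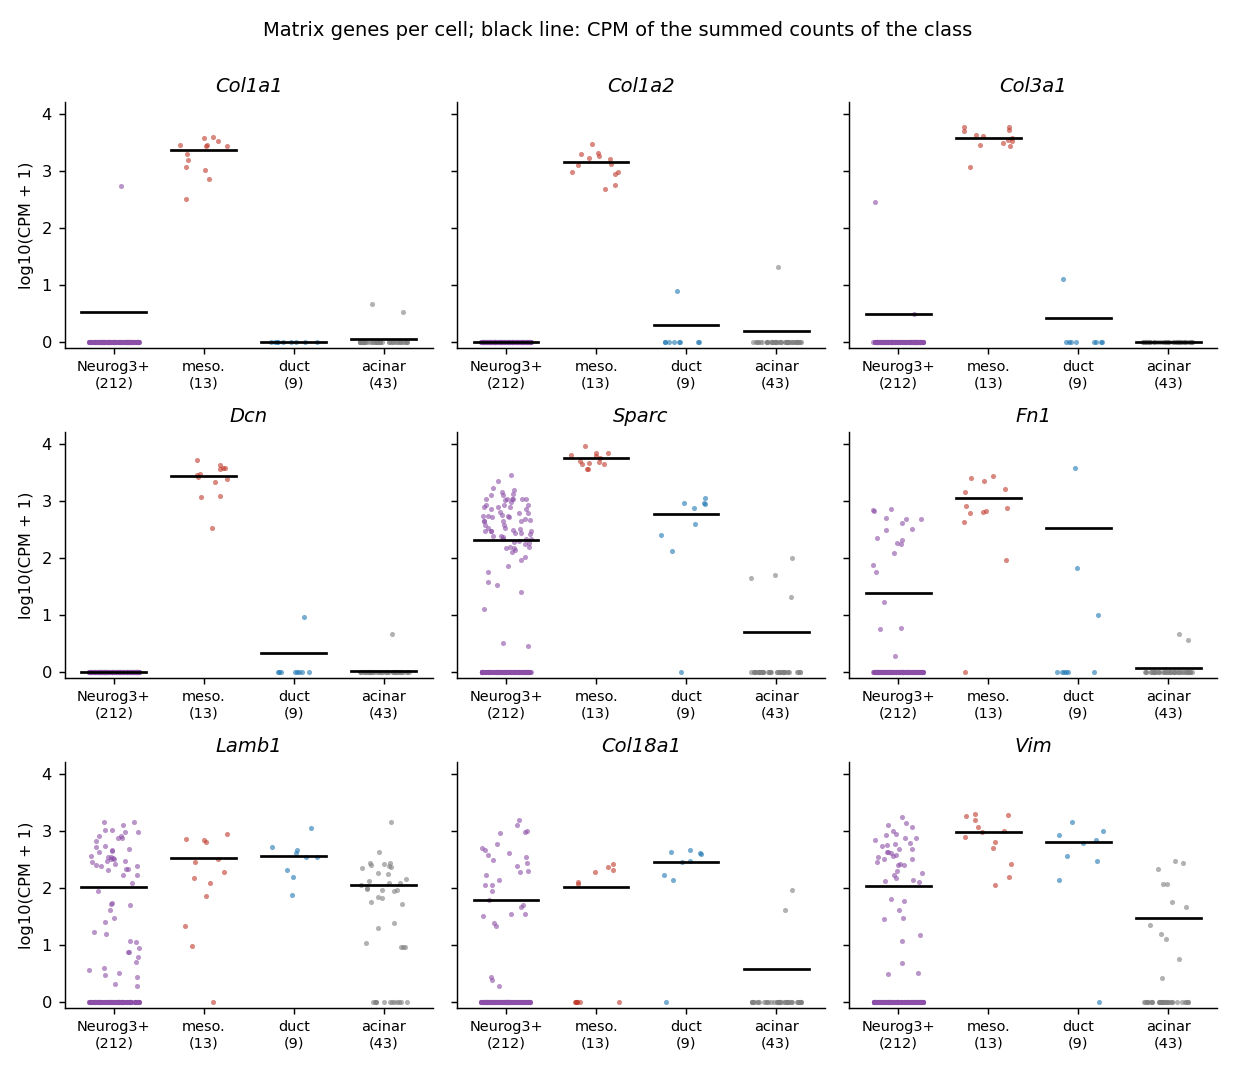
Level of each of the 9 genes in single cells, as log10(CPM + 1), in Neurog3-positive cells of the other plates (212), mesothelium-like (13), duct-like (9) and acinar-like (43) cells of EA04; each point is a cell and the black line is the level of the summed counts. In the upper row and for Dcn only the mesothelium-like cells stand above 1000 CPM, while Sparc, Lamb1, Col18a1 and Vim are also found in duct-like cells and in part of the Neurog3-positive cells.

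Other matrix genes followed the same division. Of a list of matrix genes in 8 groups, 80 reached 20 CPM in the mesothelium-like or epithelial cells of EA04, with 59 over 2-fold higher and 11 lower in the mesothelium-like cells, against 28.4% and 23.1% of all genes. The median log2 ratio was 2.77, against 0.08 over all 7979 genes. Of the 80 genes, 48 reached 20 CPM only through the mesothelium-like cells and 5 only through the epithelium, and each of these could come out in 1 direction only. Among the 27 that reached it in both classes, 12 were higher and 6 lower.

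All 4 measured genes of the list's fibrillar collagen group were higher in the mesothelium-like cells. This group also holds fibril-associated collagens, Col14a1 among them. Col5a2, whose product sits inside collagen I fibrils, was at 258 CPM against 0 counts, Col5a1 at 121.7 CPM against 0 counts, and Col14a1 at 214 against 1.49 CPM. All 12 measured genes of collagen VI and elastic microfibrils were higher as well, among them the fibrillin genes Fbn2 (518 against 0.264 CPM) and Fbn1 (283 CPM against 0 counts) and Col6a1 (225 CPM against 0 counts). Of 16 genes of collagen synthesis and crosslinking 12 were higher, led by the lysyl oxidase genes Lox (150 CPM against 0 counts) and Loxl1 (137.5 against 2.11 CPM) and by Fkbp10, a collagen chaperone gene (205 against 7.95 CPM). In this group Plod3 was lower, at 0.849 against 35.1 CPM.

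Proteoglycan and matricellular genes were split 7 higher to 2 lower of 10, with the small leucine-rich proteoglycan genes Ogn (278 against 0.308 CPM), Fmod (167 against 0.527 CPM) and Bgn (90.7 CPM against 0 counts) on one side. Smoc1 (0 counts against 46.1 CPM) and Cyr61 (55.9 against 143.1 CPM) were on the other. Of 10 matrix protease and inhibitor genes 9 were higher, with Mmp2 at 202 CPM and Reck at 90.997 CPM against 0 counts each, and Adamts5 at 130.6 against 1.93 CPM. Basement membrane genes divided, 5 higher and 1 lower of 9: Nid2 (448 against 1.41 CPM), Nid1 (114.1 against 0.0439 CPM, from 1 count) and Fras1 (509 against 71.6 CPM) were higher, and the laminin chain gene Lama5 (13.2 against 55.8 CPM) lower.

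Receptors and filaments separated the classes in both directions. The collagen receptor gene Ddr2 (63.7 CPM against 0 counts) and the integrin genes Itga3 (163 against 12.9 CPM) and Itgav (72.8 against 9.27 CPM) were higher in the mesothelium-like cells, with 6 higher and 4 lower of 11. Sdc1 (5.77 against 56.7 CPM), the laminin receptor chain Itga6 (36.2 against 215 CPM) and dystroglycan, Dag1 (53.5 against 128.3 CPM), were lower. Among the filament genes (4 higher and 3 lower of 8) Acta2 (54.2 against 0.0439 CPM, from 1 count), Krt7 (350 against 38.7 CPM) and Prph (32.3 CPM against 0 counts) were higher. The simple epithelial keratins Krt18 (79.8 against 669 CPM) and Krt8 (173 against 660 CPM) and the lamin gene Lmnb1 (2.72 against 30.3 CPM) were lower.

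**Figure D3:**
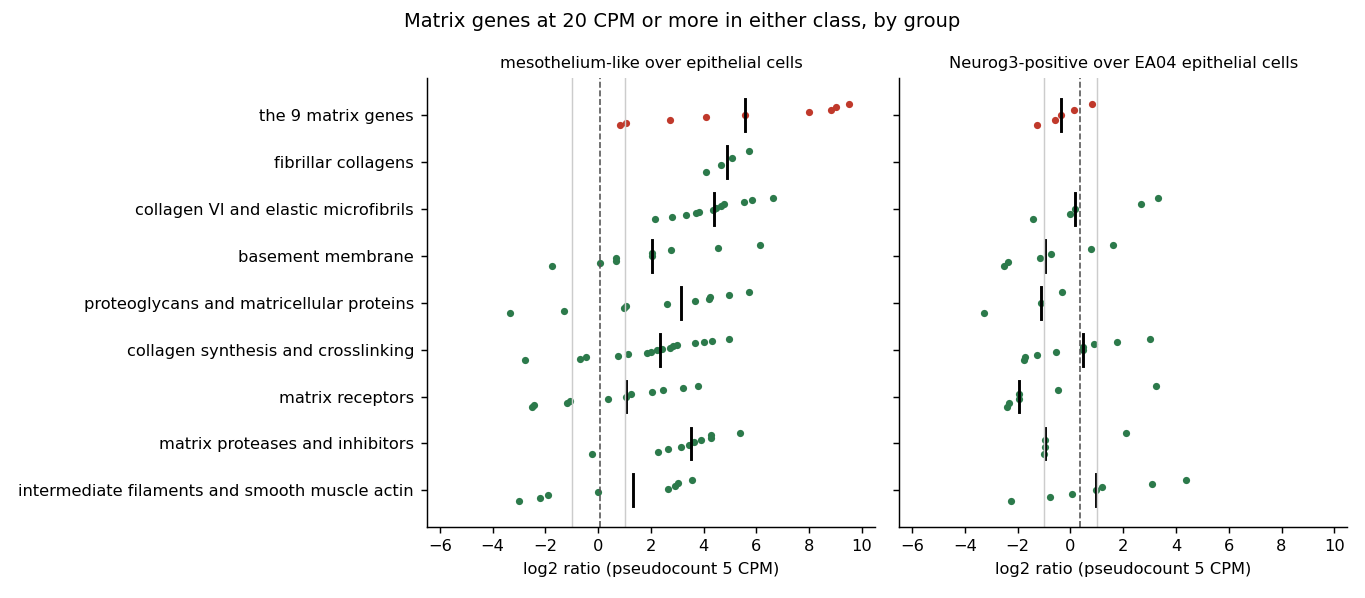
Log2 ratio of each matrix gene at 20 CPM or more in either class, for mesothelium-like over epithelial cells of EA04 (left) and Neurog3-positive over epithelial cells of EA04 (right), with 5 CPM added; points are genes by group, black bars group medians, grey lines 2-fold and the dashed line the median of all genes. On the left the list's median is 2.77 and on the right -0.51, with no fibrillar collagen measured on the right.

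The genes most like the stromal 4 were sought over all 66 cells of EA04, by rank correlation with the summed Col1a1, Col1a2, Col3a1 and Dcn counts among 8984 genes. The 6 closest were Upk3b (0.91), Serping1 (0.90), Rarres2, Colec12, Tmem108 and Osr1 (0.88). Each was at 10 CPM or more in 12 or 13 of the 13 mesothelium-like cells and in at most 1 epithelial cell. The correlations therefore describe the division of the plate into classes, and cells of 1 plate share their library preparation.

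In the other plates, 212 cells had at least 20 CPM of Neurog3, at a median of 533935 counts. Of the 9 genes, the 5 at 20 CPM or more in the EA04 epithelium remained in part of these cells. Among these 5, Sparc, Fn1 and Vim were also higher in the mesothelium-like than in the epithelial cells. Col1a1, Col1a2, Col3a1 and Dcn were each read in at most 2 of the 212 cells. Col1a2 and Dcn had 0 counts in all 212 cells, against 1407 and 2732 CPM in the mesothelium-like cells, where a count of 0 cells allows a share of up to 1.42% (3 of 212). For counting error alone, the log2 ratio without added CPM was at most -15.53 for Col1a2 and at most -16.49 for Dcn. These limits take reads as independent, and cells that were not sampled lie outside them. Of the 9 genes, 8 were over 2-fold lower than in the mesothelium-like cells, where 21.7% of 8598 genes were, and Col18a1 (-0.71) was not. The 4 stromal genes reached 20 CPM only through the mesothelium-like cells and could only come out lower. Col1a1 was read in 1 Neurog3-positive cell (EA06, 547 CPM, with none of the other 8 genes) and Col3a1 in 2 cells, 1 of EA07 at 286 CPM and 1 of EA03 at 2.05 CPM. No Neurog3-positive cell held 2 of these 4 genes, and 10 of the 17 mesenchyme markers and 5 of the 7 mesothelium markers had 0 counts in the class.

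Sparc was the most widely read of the remaining genes, with at least 10 CPM in 76 of 212 Neurog3-positive cells (35.8%, 29.4 to 42.7) and up to 2798 CPM. Lamb1 followed in 48 cells (22.6%, 17.2 to 28.9, highest cell 1440 CPM) and Vim in 42 cells (19.8%, 14.7 to 25.8, highest 1764 CPM). Col18a1 was found in 29 cells (13.7%, 9.36 to 19.05, highest 1544 CPM) and Fn1 in 17 (8.02%, 4.74 to 12.5, highest 708 CPM). The median cell was at 0 for each of the 5 genes, so each was carried by a minority. None of the 5 reached 10 CPM in 85 of the 212 cells (40.1%), and 49 cells (23.1%) held 2 or more. Of the EA04 cells, 9 of 9 duct-like and 11 of 43 acinar-like cells held 2 or more. Median genes read per cell were 2457 in the Neurog3-positive, 4395 in the duct-like and 4476 in the acinar-like cells. The part of this difference in these shares was not tested.

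Summed over all cells, the 5 genes were at 203 CPM (Sparc), 109.2 (Vim), 102.7 (Lamb1), 60.8 (Col18a1) and 22.8 CPM (Fn1) in the Neurog3-positive cells, against 112.2, 142.1, 156.8, 55.4 and 61.5 CPM in the same order in the EA04 epithelium. Over 2-fold, 1 of the 5 was lower and 0 were higher, where the background over 8084 genes was 14% lower and 27.9% higher. The median of these genes was a log2 ratio of 0.35, and 0.04 with edgeR's TMM factors, under which 52.5% of the calls were higher against 66.7% with plain totals. The 1 lower gene was Fn1 (log2 ratio -1.26), and it turned to 1.97 without the 1 duct-like cell that held most of its counts and to -0.92 without EA07. Sparc (0.83) came to 1.02 without EA06. With the plates of the same Rn45s share as EA04 only (EA01, EA02 and EA03), Sparc was higher at 1.34 and the other 4 were within 2-fold, Fn1 at -0.80 included.

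Split by epithelial class, the Neurog3-positive cells stood between duct-like and acinar-like cells for most of the 5. All 5 were over 2-fold lower than in the duct-like cells (20.4% of 8351 genes were lower), by log2 ratios of -1.51 for Sparc, -3.59 for Fn1, -1.76 for Lamb1, -2.14 for Col18a1 and -2.50 for Vim. Nearly all duct-like Fn1 counts came from a single cell, so the Fn1 call rests on that cell. Set against the acinar-like cells, Sparc (4.51), Fn1 (2.43, from 3 acinar-like counts), Col18a1 (3.07) and Vim (1.79) were higher, where 31.7% of genes were, and Lamb1 (-0.10) was level. Sparc, Fn1 and Col18a1 reached 20 CPM only through the Neurog3-positive cells. The plates hold either EA04 cells or Neurog3-positive cells, so that plate and class cannot be told apart in these comparisons.

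The list of matrix genes was then read in the Neurog3-positive cells. In the comparison with the EA04 epithelium 40 genes were measured, 10 higher and 15 lower, with a median log2 ratio of -0.51 against 0.35 over all genes. Of these, 8 reached 20 CPM only in the Neurog3-positive cells and 10 only in the epithelium, and among the other 22 there were 2 higher and 6 lower. None of the 8 genes of the list's fibrillar collagen group reached 20 CPM in either class. Those higher were Krt7 (897 against 38.7 CPM), the discoidin receptor gene Ddr1 (132.5 against 9.49 CPM), Bmp1, whose product trims procollagen (125.7 against 11.1 CPM), the microfibril genes Mfap2 (107.4 against 12.5 CPM) and Mfap4 (45.3 CPM against 0 counts), and the basement membrane collagen gene Col4a1 (37.6 against 8.87 CPM). Mmp14 (66.2 against 11.7 CPM), Plod1 (34.2 against 6.50 CPM), Nefm (37.4 CPM against 0 counts) and Lmna (129.8 against 53.6 CPM) completed them. Among those lower were Gpc3 (72.1 against 741 CPM), Itga6 (38.98 against 215 CPM), Sdc4 (5.62 against 51.9 CPM), Fras1 (8.51 against 71.6 CPM) and the perlecan gene Hspg2 (0.475 against 23.5 CPM). P4hb (751 against 2485 CPM) was lower too.

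**Figure D4:**
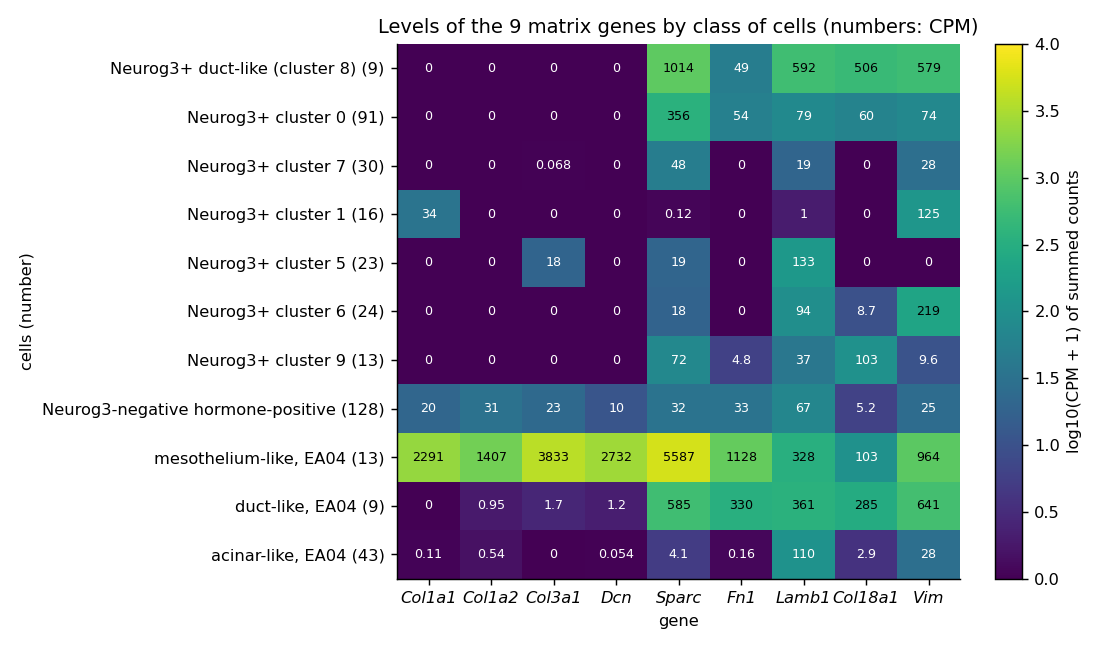
Levels of the 9 genes in CPM of summed counts (numbers, with colour as log10(CPM + 1)) in clusters of Neurog3-positive cells, in Neurog3-negative hormone-positive cells and in the classes of EA04; the number of cells is in brackets. The Neurog3-positive duct-like cells hold Sparc, Lamb1, Col18a1 and Vim at 506 to 1014 CPM and none of the 4 genes on the left.

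Within the Neurog3-positive cells 4 of the 5 genes were highest in those of the duct-like cluster, and Fn1 was about as high in cluster 0 (53.9 CPM). In 9 of the 212 cells, which fell in the duct-like cluster, Sparc ran up to 1695 CPM with a median cell of 1074 CPM, and 7 of the 9 held it. Their summed levels were 1014 against 153.97 CPM for Sparc in the other 203 cells, 592 against 73.4 CPM for Lamb1, 579 against 80.98 CPM for Vim, 506 against 34.1 CPM for Col18a1 and 48.8 against 21.2 CPM for Fn1. All 5 were over 2-fold higher, where the background was 23.2%. The 9 cells also had more counts per cell (median 823574 against 528622) and Spp1, a duct marker, at 9463 against 387 CPM. All 7 mesothelium markers, all 6 pericyte markers and 12 of 13 endothelium markers had 0 counts in them. Of the 17 mesenchyme markers 13 had 0 counts and 2 reached 20 CPM, summed to at most 2280 CPM per cell. In the other 203 cells 0 of the 17 reached 20 CPM, and the highest cell had 777 CPM. The part of the depth in these values was not tested.

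Set against the duct-like cells of EA04, these 9 cells differed over 2-fold in 1 of the 5 genes. Sparc (log2 ratio 0.79), Lamb1 (0.71), Col18a1 (0.82) and Vim (-0.14) lay within 2-fold, and Fn1 was lower (-2.64), where 31.7% of genes were higher and 21.8% lower between these 2 sets of 9 cells. The EA04 level of Fn1 came nearly all from a single cell, so the Fn1 difference rests on that cell. Neither set held more than 7 counts of any of Col1a1, Col1a2, Col3a1 and Dcn.

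Among the other Neurog3-positive cells, Sparc belonged mainly to cluster 0, led by Tff3 and Ttll6, where it stood at 356 CPM and in 55 of 91 cells. In the cluster led by Fev (cluster 1, 16 cells), Sparc was read in a single cell at 1.80 CPM, while 5 of 16 cells held Vim, summed to 125.4 CPM. In cluster 7, led among others by Rfx2 and Pax4, 5 of 30 cells held Sparc and 1 held Vim. In cluster 5, led by Irs4, Arg1, Sst and Ghrl, Lamb1 was at 133.3 CPM in 8 of 23 cells, with 0 counts of Fn1, Col18a1 and Vim. Clusters 6 and 9 came from EA07 alone, with Vim at 219 CPM in the first (8 of 24 cells) and Col18a1 at 103.4 CPM in the second (3 of 13 cells). The 5 genes were thus not found in the same clusters, and Lamb1 was the one found in most of them.

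Across the Neurog3-positive cells Sparc went with Col18a1 (rank correlation 0.47, 24 of 212 cells with both) and with Vim (0.38, 26 cells), and hardly with Lamb1 (0.12). Among 6233 genes the closest to Sparc was the secreted chaperone gene Clu, a duct marker (0.56), followed by Spink4 (0.54) and Habp2 (0.52). Habp2, a protease gene, was also closest to Col18a1 (0.45) and to Vim (0.38). The closest to Lamb1 was Baiap2l1 (0.35) and to Fn1 Sap30 (0.26), weak correlations in sparse counts. The cells share plates and depth, and no value was tested.

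With the level of Neurog3, the share of cells with Sparc did not move evenly. Of cells under 20 CPM of Neurog3, 12 of 217 (5.53%) had at least 10 CPM of Sparc. The share was 6 of 29 (20.7%) at 20 to 200 CPM, 5 of 32 (15.6%) at 200 to 1000 CPM, 11 of 41 (26.8%) at 1000 to 3000 CPM and 54 of 110 (49.1%) at 3000 CPM or more. For Lamb1 the shares were 15.2%, 17.2%, 34.4%, 17.1% and 22.7% in the same order, so the highest share was in the middle bin. Within plates, Sparc was higher in Neurog3-positive than in Neurog3-negative cells of EA01 (298 CPM against 0 counts), EA02 (297 against 3.18 CPM), EA03 (278 against 136.9 CPM, or 34.8 CPM without the 1 Gcg-positive cell described next) and EA05 (39.3 against 5.11 CPM). It was level in EA07 (161 against 156.3 CPM) and lower in EA06 (33.9 against 125.4 CPM). In EA05 a single one of the 7 Neurog3-positive cells reached 10 CPM of Sparc. The Neurog3-negative cells of EA06 and EA07 included 4 cells of the duct-like cluster. Each of them held 4 or more of Sparc, Fn1, Lamb1, Col18a1 and Vim, and their part in these values was not tested.

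Hormone-positive cells had at least 1000 CPM of a hormone gene (Ins1, Ins2, Gcg, Sst, Ppy or Ghrl) and under 20 CPM of Neurog3. There were 14 and 16 of them in EA06 and EA07, 17, 15 and 16 in EA01, EA02 and EA03, and 50 in EA05. Sparc, Vim and Col18a1 were higher in the Neurog3-positive than in these hormone-positive cells. Sparc was at 203 against 31.9 CPM and in 35.8% of the Neurog3-positive against 5.47% (2.23 to 10.9) of the hormone-positive cells. Vim was at 109.2 against 24.8 CPM (19.8% against 7.81% of cells) and Col18a1 at 60.8 against 5.23 CPM (13.7% against 4.69%). The 3 were over 2-fold higher, where 10.1% of 7856 genes were, and Col18a1 reached 20 CPM only through the Neurog3-positive cells. A Gcg-positive cell of EA03 held 53.6% of the hormone-positive Sparc counts, and without it the level was 14.9 CPM. Plates gave unequal numbers of both classes. Within plates, by a comparison added after seeing the data, Sparc was over 2-fold higher in EA07, EA01, EA02 and EA05, and within 2-fold in EA03 (log2 ratio 0.39) and EA06 (-0.89). Vim was over 2-fold higher in the same 4 plates, at -0.48 in EA03 and lower in EA06 (-1.91). The Sparc value of EA05 rests on a single one of its 7 Neurog3-positive cells at 10 CPM or more. In EA06 the hormone-positive Sparc counts all came from a single cell of the duct-like cluster, with Sparc at 648 and Vim at 891 CPM. Values of EA06 without that cell were not computed. Col18a1 was over 2-fold higher in EA07, EA01, EA02 and EA03, at -0.74 in EA05 and at 0 counts in both classes of EA06. Lamb1 (102.7 against 67.2 CPM) and Fn1 (22.8 against 32.7 CPM) lay within 2-fold. None of the 5 genes was found in 85 of 212 Neurog3-positive (40.1%) and 83 hormone-positive cells (64.8%). Of the 212 Neurog3-positive cells, 26 also had at least 1000 CPM of a hormone gene.

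Col1a2 (0 counts against 30.95 CPM) and Col3a1 (2.05 against 22.5 CPM) were over 2-fold lower in the Neurog3-positive than in the hormone-positive cells, where 8.72% of genes were. Both reached 20 CPM only through the hormone-positive cells, and both calls rested on the same Gcg-positive cell of EA03, which held Col1a2 at 3596, Col3a1 at 3411, Col1a1 at 2954, Sparc at 2590 and Dcn at 930 CPM, and without it no gene was lower. That cell had Gcg at 14231 CPM, Osr1 at 533 and Wt1 at 127.5 CPM, and 4521 genes read against a median of 3015 in its class. Whether its well held more than a single cell was not tested. In the other hormone-positive cells Col1a2 still appeared at 10 CPM or more in 7 cells, of up to 324 CPM. Over the series, 20 of the 482 cells outside the mesothelium-like class had a read of any of the 4 stromal genes, 16 of them of just 1 gene.

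Of the listed matrix genes 34 were measured against the hormone-positive cells, with 8 higher and 2 lower, against 10.1% and 8.72% of all genes, and a median log2 ratio of 0.40 against 0.06. Of the 34, 7 reached 20 CPM only in the Neurog3-positive and 4 only in the hormone-positive cells, and among the other 23 there were 3 higher and 0 lower. Cyr61, a matricellular protein gene (63.2 against 1.25 CPM), Mfap4 (45.3 against 2.15 CPM), Mmp14 (66.2 against 9.33 CPM), Adamts1 (65.3 against 13.6 CPM) and the laminin chain gene Lama5 (98.6 against 27.7 CPM) were higher. Krt7 (897 against 265 CPM), Krt8 (1281 against 504 CPM) and Itga6 (38.98 against 10.9 CPM) were higher as well. Col6a3 (10.6 against 66.1 CPM) and Lepre1, a collagen prolyl hydroxylase gene (11.7 against 56.7 CPM), were lower.

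At the 2 stages, Sparc was read in fewer Neurog3-positive cells at E17.5 than at E15.5, in 12 of 77 (15.6%, 8.32 to 25.6) against 64 cells (47.4%, 38.8 to 56.2), with summed levels of 119.2 against 276 CPM. Fn1 was at 13.1 against 31.3 CPM, Lamb1 at 94.6 against 109.8 CPM, Col18a1 at 84.4 against 40.1 CPM and Vim at 140.5 against 81.7 CPM. Of the 5, Sparc (log2 ratio -1.18) and Fn1 (-1.004) passed 2-fold, both lower, where 5.24% of 7945 genes were lower and 21.9% higher, and Fn1 reached 20 CPM only through the E15.5 cells. All genes together had a median of 0.29, or 0.05 with TMM factors, under which 65.4% of calls were higher against 80.7%. Stage came with another genotype, and stage and genotype cannot be told apart. Most E15.5 cells also came from plates with another Rn45s share. Neurog3-positive cells that also had 1000 CPM of a hormone gene numbered 13 and 9 in EA06 and EA07. In EA01, EA02, EA03 and EA05 they numbered 2, 1, 1 and 0. None of the 5 genes was held by 17 of these 26 cells, against 68 of the other 186. The part of this difference in the stage values was not tested.

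The plates of a stage differed among themselves. In EA06 and EA07 (33 and 44 Neurog3-positive cells) Sparc stood at 33.9 and 161 CPM, Lamb1 at 18.5 and 131.9, Vim at 28.6 and 195, and Col18a1 at 0 and 125.7 CPM. EA07 had a median of 3862.5 genes per Neurog3-positive cell, against 2245 to 2424 in the 5 other plates, and its part in these values was not tested. At E15.5 Sparc stood at 298, 297 and 278 CPM in EA01, EA02 and EA03 and at 39.3 CPM in EA05, which held only 7 such cells and is the single E15.5 plate with the Rn45s share of EA06 and EA07. Set against EA05 alone, the E17.5 cells were higher for Sparc (log2 ratio 1.49), and without EA07 they were over 2-fold lower for 4 of the 5 genes, with Sparc at -2.85 and Col18a1 at -3.17. Without EA06 Sparc came to -0.76 and Col18a1 and Vim to 1.54 and 1.21. Fn1 came to -0.90 without EA01 and -0.50 without EA02, where Col18a1 (1.37) and Vim (1.05) passed 2-fold. The direction for Sparc thus held against EA01 to EA03. Among the plates with a like Rn45s share, EA07 stood above EA05, and EA06 lay close to it (33.9 against 39.3 CPM). In EA05 a single one of the 7 cells reached 10 CPM of Sparc, so the Sparc comparisons with EA05 rest on that cell. Few of the 33 cells of EA06 reached it.

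**Figure D5:**
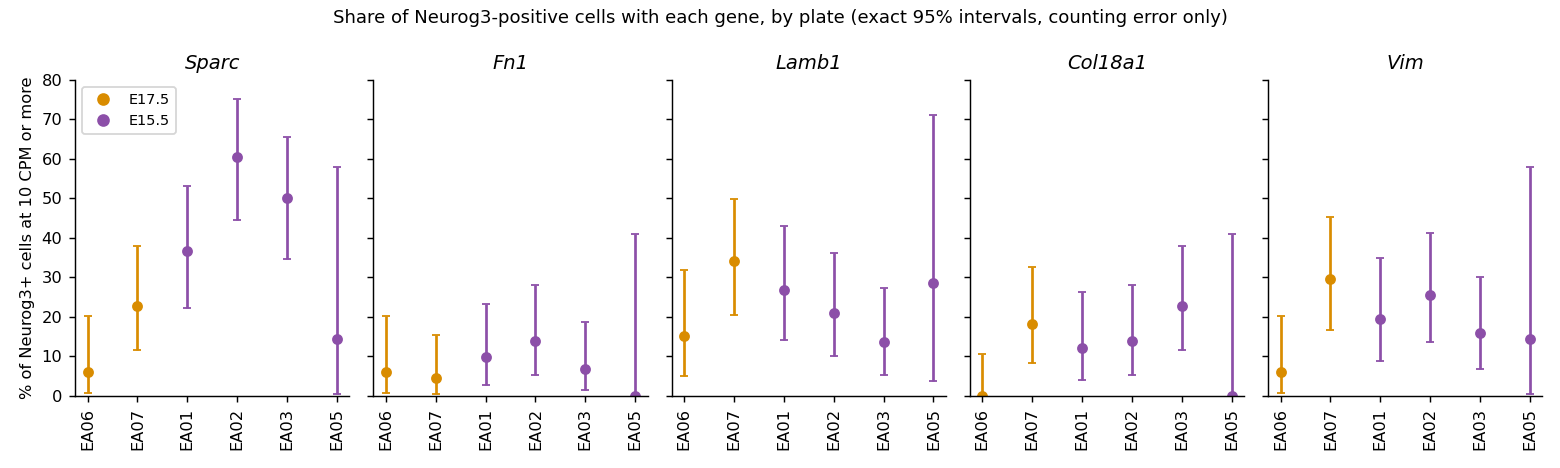
Share of Neurog3-positive cells with at least 10 CPM of Sparc, Fn1, Lamb1, Col18a1 and Vim in each plate (percent, with exact 95% intervals for counting error); orange is E17.5 and purple E15.5. Sparc is at 6.06% and 22.7% in EA06 and EA07, at 36.6% to 60.5% in EA01 to EA03 and at 14.3% in EA05, while Lamb1 lies between 13.6% and 34.1% in all 6 plates.

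Of the listed matrix genes 35 were measured between the stages, with 9 higher and 3 lower at E17.5, against 21.9% and 5.24% of all genes, and a median log2 ratio of 0.20 against 0.29. Of the 35, 8 reached 20 CPM only at E17.5 and 2 only at E15.5, and among the other 25 there were 3 higher and 1 lower. Nefm (76.4 against 3.19 CPM), Fbln2 (31.2 against 0.0907 CPM, from 6 counts), Smoc1 (70.2 against 6.41 CPM), Ddr1 (212 against 62.3 CPM) and Lmna (198 against 69.8 CPM) were among those higher. Fbln1 (3.65 against 47.05 CPM), Mfap2 (28.5 against 177 CPM) and the basement membrane proteoglycan gene Agrn (6.35 against 34.4 CPM) were lower. Against EA05 alone Mfap2 turned to a log2 ratio of 2.67, and without EA07 Lmna (0.44) and Ddr1 (0.54) did not pass 2-fold.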

How the data were processed

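Single cells of the embryonic pancreas were measured with Smart-Seq2. The authors deposited raw counts of reads for every gene in every cell. FastQC, STAR, HTSeq and the build mm10 are named, per the submitters' processing notes, without versions; the sort gates are not given here. Columns were tied to samples through their names, and no 2 cells were identical. Cells held 200152 to 1182889 counts (median 533363).

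Counts were summed over the cells of a class, divided by their total and given as CPM, with exact Poisson, Clopper-Pearson or conditional binomial 95% intervals. A gene was measured at 20 CPM in either class and called at 2-fold, with a pseudocount of 5 CPM. A cell held a gene at 10 CPM. PCR copies cannot be removed from such reads. Without replicate samples no test was run.

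Cells were clustered in scanpy 1.11.5 (2000 variable genes, 30 components, 15 neighbours, Leiden resolution 1) without the matrix genes. A cluster took the class with the largest share of its markers over 2-fold higher; this scoring was written after a first look. No doublet caller was run, since each well was meant for 1 cell. Lengths are of the longest coding transcript. Named matrix genes were up to 3 per group and direction with the largest ratio. The 9 genes, the lists and the classes were chosen with earlier results of these data known. Scaling factors came from edgeR 4.0.16 and DESeq2 1.42.0.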

Additional observations from a re-analysis of the deposited data

How the results depend on the processing

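Of the recomputed counts of called genes, 178 stayed within 1.5 times of the reported one and 30 did not. Of the single log2 ratios recomputed for the 9 genes, 165 stayed within the width of their counting interval and 237 moved beyond it. Where a class had 0 counts no finite interval was used, and any change counted as a move. A further 9 ratios that had passed 2-fold changed sign, listed matrix genes among them. Ratios of the listed matrix genes were counted here only where the sign changed. The count of matrix genes lower in mesothelium-like cells was 18 with no filter on genes and 3 at Leiden resolution 0.5, against 11. At that resolution mesothelium-like and duct-like cells fell in 1 class of 23 EA04 cells, set against 43, and Plod3 (1.41), Lmnb1 (0.13), Krt8 (0.032) and Cyr61 (3.55) turned higher there, as log2 ratios. In the Neurog3-positive cells against the EA04 epithelium, no gene of the 9 was lower with a pseudocount of 20 CPM, at resolution 0.5, without the Fn1-rich duct-like cell or with EA01 to EA03 only. With classes from marker sums, under which Col1a1, Col1a2, Col3a1 and Dcn reached 20 CPM in 53 epithelial cells, 5 were lower. Genes higher were 4 at resolution 0.5 and 1 each without that duct-like cell and with EA01 to EA03 only. Fn1 was at 2.43 at resolution 0.5 and 1.97 without that cell, and Cyr61 at 1.38 at resolution 0.5. With plates left out in turn, 0 to 1 gene was lower and 0 to 1 higher. Matrix genes higher numbered 16 with no filter, against 10. Against hormone-positive cells, 1 gene was lower with a pseudocount of 20 CPM and 0 without the Gcg cell of EA03, against 2, with 0 to 2 over plates left out. At E17.5, genes higher were 1 with a pseudocount of 1 CPM, 1 with Neurog3 at 100 CPM and 2 against EA05 alone, against 0, with 0 to 2 over plates left out. Genes lower were 1 with the mean of the cells' own CPM, with a pseudocount of 20 CPM and without the highest cell of each gene. They were 0 with Neurog3 at 100 CPM and against EA05 alone, and 1 to 4 over plates left out, against 2. Against EA05 alone Sparc (1.49) and Mfap2 (2.67) turned higher. The duct-like cell, the Gcg cell, the EA01 to EA03 and the EA05 alternatives were chosen after seeing the data, and apart from those built into an alternative the causes were not tested. No paired analysis was possible because the values come from no test; within-plate values stand in the text. With 9 duct-like and 13 mesothelium-like cells, all from 1 plate, counting intervals leave out the spread between animals, which these data do not give.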
